A study of Mus musculus with 2 samples.

Results

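The genes described here encode 10 subunits or subunit isoforms of mitochondrial ATP synthase that are carried in the nuclear genome, and they were taken by their Ensembl identifiers from a list of 10. All 10 were among the 12530 mouse genes listed in both tables. The libraries hold ribosome-protected fragments of spinal cord, 1 library from wild-type mice (WT) and 1 from mice with a single mutant copy of Gars carrying C201R (GarsC201R/+). Gars encodes glycyl-tRNA synthetase, and the design text names ribosome occupancy at glycine codons as the question of the study. Both groups were flash-frozen tissue without a stated treatment or age, and each library was made from lysates of 3 animals that were pooled, so no spread between animals can be given. The tables give 1 read number per gene, without positions inside the gene and without matching RNA libraries, so codon occupancy, mRNA amount and translation rate were not analysed here. In whole tissue, fewer cells of a type and fewer reads per cell cannot be told apart.

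ATP synthase sits in the inner mitochondrial membrane and uses the flow of protons back into the matrix to make ATP. A ring of c subunits turns in the membrane and drives the central stalk, which contains the gamma and delta subunits, inside a catalytic head of alternating alpha and beta subunits. A peripheral stalk of the b, d, F6 and OSCP subunits holds the head still. The alpha, beta and c subunits are present in several copies per enzyme, and the other subunits described here in a single copy. Neurons depend on this enzyme for the ATP that supports ion pumping and axonal transport. The remaining subunits and the assembly factors were not analysed here, because no table used here pairs their symbols with Ensembl identifiers. The tissue label was not checked against marker genes for the same reason.

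The listed reads summed to 7771455 in the WT library and to 3514016 in the GarsC201R/+ library, a 2.21-fold difference in depth. ERCC spike-ins, synthetic control RNAs, made up 0.00669% of the listed reads in the WT and 0.650% in the GarsC201R/+ library, so every direction given here is relative to the mouse gene reads and not to the spike-ins. With 1 library per genotype there was no replicate check and no p-value. All intervals are 95% intervals of counting error and compare these libraries rather than the genotypes. They do not allow for reads copied from the same molecule, and those of scaled ratios do not allow for the choice of scaling.

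The 10 genes together held 36394 reads in the WT library, which was 0.468% of the gene reads (Wilson interval 0.464% to 0.473%). They held 17616 reads in the GarsC201R/+ library, or 0.505% (0.497% to 0.512%). After TMM scaling, which sets the bulk of genes to equal levels, the summed reads were 1.04-fold higher in the GarsC201R/+ library (1.02 to 1.06). Atp5a1 and Atp5b made up 68.2% of the sum in WT and 70.2% in GarsC201R/+, so the sum mainly follows these genes. Without them the ratio of the sums was 0.972 (0.941 to 1.00), and its direction turned with the scaling (log2 ratio -0.04, or 0.01 with total gene reads). The summed level was therefore close to equal in the libraries, while single subunits differed in both directions, as described below.

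Levels between subunits were compared as RPKM, reads divided by the length of the gene and by the sequencing depth. The length is that of the authors' gene model, so a long untranslated part of an mRNA lowers the value. Atp5b, the catalytic beta subunit, had the highest level of the 10 genes in both libraries. The next 3 places were held by Atp5g3, Atp5a1 and Atp5d in WT and by Atp5a1, Atp5g3 and Atp5d in GarsC201R/+. Atp5g3 and Atp5a1 had overlapping counting intervals in WT and separate ones in GarsC201R/+. A gap of 2.68-fold in WT and 2.24-fold in GarsC201R/+ separated Atp5d from the next gene. The 4 peripheral stalk genes and Atp5c1 followed, between 103 and 149 RPKM in WT and between 89.3 and 206 RPKM in GarsC201R/+. In WT neighbours in the order Atp5h, Atp5o, Atp5j, Atp5f1 had overlapping intervals, while the first and the last of them did not overlap (137 to 162 RPKM for Atp5h and 121 to 133 RPKM for Atp5f1). In GarsC201R/+ Atp5o stood 1.41-fold above Atp5j, Atp5j and Atp5h overlapped, and Atp5c1 and Atp5f1 overlapped at the lower end. Atp5g1 was far below all others in both libraries.

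**Figure D1:**
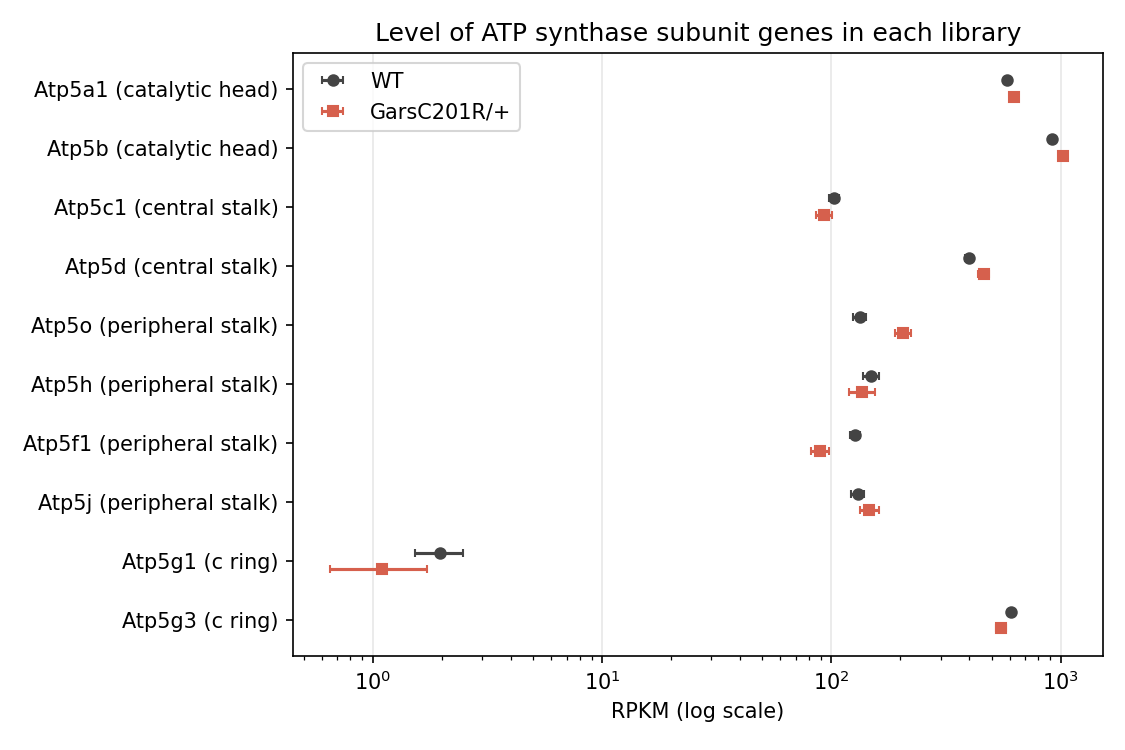
Level of each subunit gene in RPKM (log axis) in the WT library (circles) and the GarsC201R/+ library (squares), with 95% Poisson intervals of the read number as bars. Atp5b lies highest at 915 and 1027 RPKM, Atp5g1 lowest at 1.96 and 1.10 RPKM, and Atp5o and Atp5f1 show the clearest separation between the libraries among the well covered genes.

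The catalytic head genes had nearly the same level in both libraries. Atp5b (ENSMUSG00000025393) had 13653 reads in the WT library, or 915 RPKM, and 6928 reads in the GarsC201R/+ library, or 1027 RPKM. Its level was 1.09-fold higher in GarsC201R/+ after TMM scaling (interval 1.06 to 1.12). Atp5a1 (ENSMUSG00000025428), the alpha subunit that shares the nucleotide-binding head with beta, had 11177 reads in WT, or 581 RPKM, and 5447 reads in GarsC201R/+, or 626 RPKM. Its ratio was 1.05 (1.01 to 1.08). The intervals of both genes leave out equal levels because of the large read numbers, and the differences are small. The ratio of Atp5b to Atp5a1 reads, which does not depend on the scaling between libraries, was 1.22 in WT and 1.27 in GarsC201R/+, and the counting interval of its change held equal ratios (1.04, interval 0.997 to 1.09).

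The central stalk genes differed from each other in direction. Atp5d (ENSMUSG00000003072), the delta subunit at the foot of the stalk, had 2889 reads and 398 RPKM in WT and 1510 reads and 461 RPKM in GarsC201R/+. It was 1.12-fold higher in GarsC201R/+ (1.05 to 1.19). Atp5c1 (ENSMUSG00000025781), the gamma subunit that forms the rotating shaft, had 1387 reads and 103 RPKM in WT and 569 reads and 93.2 RPKM in GarsC201R/+, a 1.14-fold lower level (1.03 to 1.26). Per length, the level of Atp5d was thus 3.88 times that of Atp5c1 in WT and 4.95 times in GarsC201R/+. The change of that ratio was 1.27 (1.13 to 1.43).

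The peripheral stalk genes spread most widely, with the highest and the lowest ratio of the 9 genes whose reads in the libraries summed to at least 100. This part also supplies 4 of the 9, more than any other part, and the spread was not corrected for that. Atp5o (ENSMUSG00000022956), which encodes OSCP, the protein that joins the peripheral stalk to the top of the head, had 868 reads in WT, or 133 RPKM, and 608 reads in GarsC201R/+, or 206 RPKM. Its level was higher in GarsC201R/+ by a log2 ratio of 0.59 (0.44 to 0.74), just over 1.5-fold (1.35 to 1.67). Atp5f1 (ENSMUSG00000000563), the b subunit that anchors the stalk in the membrane, had 1584 reads in WT, or 127 RPKM, and 504 reads in GarsC201R/+, or 89.3 RPKM. It was 1.47-fold lower in GarsC201R/+ (1.32 to 1.62), a log2 ratio of -0.55 (-0.70 to -0.41). These genes had overlapping intervals of RPKM in WT and separate ones in GarsC201R/+.

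The remaining peripheral stalk genes lay between them. Atp5j (ENSMUSG00000022890), coupling factor F6, had 821 reads and 130.3 RPKM in WT and 417 reads and 146 RPKM in GarsC201R/+, with a ratio of 1.09 (0.966 to 1.23). Atp5h (ENSMUSG00000034566), the d subunit, had 563 reads and 149 RPKM in WT and 233 reads and 136 RPKM in GarsC201R/+, with a ratio of 0.888 (0.759 to 1.04). The intervals of both genes held equal levels. Summed over the 4 peripheral stalk genes, the ratio was 0.985 (0.931 to 1.04), with a direction that turned with the scaling (log2 ratio -0.02, or 0.03 with total gene reads), so the opposite differences of Atp5o and Atp5f1 left no detectable difference in the sum.

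The ratio of Atp5o to Atp5f1 reads was 0.548 in WT and 1.21 in GarsC201R/+. This change of 2.20-fold (1.90 to 2.55) was the largest among the pairs formed by the 9 genes with 100 or more reads, and it does not depend on how the libraries were scaled. It is the largest by construction, as these genes have the highest and the lowest ratio of the 9. The interval makes no allowance for that choice. Of the 45 pairs of all 10 genes, 32 had a counting interval of the change in their ratio that left out equal ratios. Among the 9 pairs that share a part of the enzyme, these were 7, namely all but the pair of the catalytic head and that of the c ring. These counts are not evidence of a difference between genotypes. Among all 4480 genes with 500 or more reads, the interval lay above equal levels for 26.3% and below for 36.2%. Those shares are for single genes after scaling, and pairs of other genes were not counted. The 45 pairs also reuse the same 10 genes. Whether 32 of 45 is usual for genes with such read numbers was not tested.

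The sequences upstream of 3 genes are shown because they stand at the ends of these comparisons: Atp5b with the highest level, and Atp5o and Atp5f1 with the most different ratios. Each is the 250 bases before the RefSeq transcript start in GRCm38.p6, on the strand of the gene. Nuclear genes of the respiratory chain are known as targets of NRF-1 and of the ETS factor GABP. Capitals mark matches, on either strand, to CCAAT (the box bound by NF-Y), CCGGAAG (an ETS core), GCGCATGC (an NRF-1 core), TATAAA (the TATA box) and GGGCGG (the GC box of Sp1). The first lies at chr10:128083057-128083306 (+), the second at chr16:91931631-91931880 (-) and the third at chr3:105959264-105959513 (-), where RefSeq names Atp5f1 as Atp5pb.
Atp5b: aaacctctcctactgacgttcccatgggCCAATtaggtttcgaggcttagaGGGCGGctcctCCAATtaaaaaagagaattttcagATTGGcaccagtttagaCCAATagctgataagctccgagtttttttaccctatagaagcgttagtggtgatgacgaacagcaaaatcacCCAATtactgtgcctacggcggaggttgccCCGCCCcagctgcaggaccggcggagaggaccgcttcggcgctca
Atp5o: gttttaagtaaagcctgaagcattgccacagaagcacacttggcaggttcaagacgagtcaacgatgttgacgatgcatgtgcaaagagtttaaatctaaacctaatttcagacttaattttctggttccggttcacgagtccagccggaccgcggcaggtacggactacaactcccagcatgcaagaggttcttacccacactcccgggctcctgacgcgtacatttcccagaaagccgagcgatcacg
Atp5f1: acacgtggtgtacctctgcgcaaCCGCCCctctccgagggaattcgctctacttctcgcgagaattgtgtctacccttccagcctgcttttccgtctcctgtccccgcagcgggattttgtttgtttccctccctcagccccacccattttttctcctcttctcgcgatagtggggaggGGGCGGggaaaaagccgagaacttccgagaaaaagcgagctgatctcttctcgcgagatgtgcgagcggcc

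The Atp5b stretch held 5 CCAAT and 2 GC boxes, that of Atp5f1 held 2 GC boxes, and that of Atp5o held none of the 5 motifs. Of the 10 genes, 9 had such stretches in the RefSeq table, 12 in all with alternative starts. CCAAT was found in 6 of the 12 stretches and in 5 of the 9 genes, among them Atp5g1 with 5 matches, of which a pair overlaps. Over all 32851 stretches of this length, 33.8% held CCAAT at least once and 0.213% held it 5 or more times. The ETS core was found in 2 of the 12, upstream of Atp5h and Atp5j (6.91% of all stretches). The GC box was found in 3 of the 12, upstream of Atp5b, Atp5f1 and Atp5j (32.7%). The NRF-1 core (2.26%) and the TATA box (12.4%) were found in none of the 12. A match is a description of letters and not of a bound site. The motifs and the genes shown were chosen after the values had been seen.

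The c subunit is made from several genes whose precursors differ in the targeting peptide that is removed on import and give the same mature protein. Of the pair described here, Atp5g3 supplied nearly all reads. Atp5g3 (ENSMUSG00000018770) had 3381 reads in WT, or 608 RPKM, and 1382 reads in GarsC201R/+, or 549.8 RPKM. It was 1.14-fold lower in GarsC201R/+ (1.07 to 1.22). Atp5g1 (ENSMUSG00000006057) had 71 reads in WT (Poisson interval 55.5 to 89.6), or 1.96 RPKM, and 18 reads in GarsC201R/+ (10.7 to 28.4), or 1.10 RPKM. Atp5g1 thus gave 2.06% of the reads of the pair in WT (Wilson interval 1.63% to 2.59%) and 1.29% in GarsC201R/+ (0.815% to 2.02%). These intervals overlap, and the change of the Atp5g3 to Atp5g1 ratio was 1.61 with an interval that held equal ratios (0.946 to 2.89).

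The log2 ratio of Atp5g1 was -0.87 (-1.71 to -0.12). With 89 reads in both libraries together it lay under the minimum of 100 reads and is in none of the counts of higher or lower genes. Its level in GarsC201R/+ was also close to 0.501 RPKM, the lowest value listed for that library. The gene length behind its RPKM was 4660 nt, which is longer than the whole span of 2902 nt that RefSeq gives for Atp5g1 (GRCm38.p6, chr11:96072793-96075694, introns included). For the other 9 genes the length was shorter than the RefSeq span, for example 714 nt against 4018 nt for Atp5g3 (chr2:73908447-73912464). The authors' gene model for this identifier therefore takes in more sequence than the RefSeq gene of that name, and whether both are the same locus was not tested. A long model lowers the RPKM, but the read number itself was also far lower, with 47.6 Atp5g3 reads for each Atp5g1 read in WT. The copies of the c subunit have similar coding sequences, and how reads that match several genes were counted is not given in the sources used here, so the division of reads between Atp5g1 and Atp5g3 is uncertain.

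**Figure D2:**
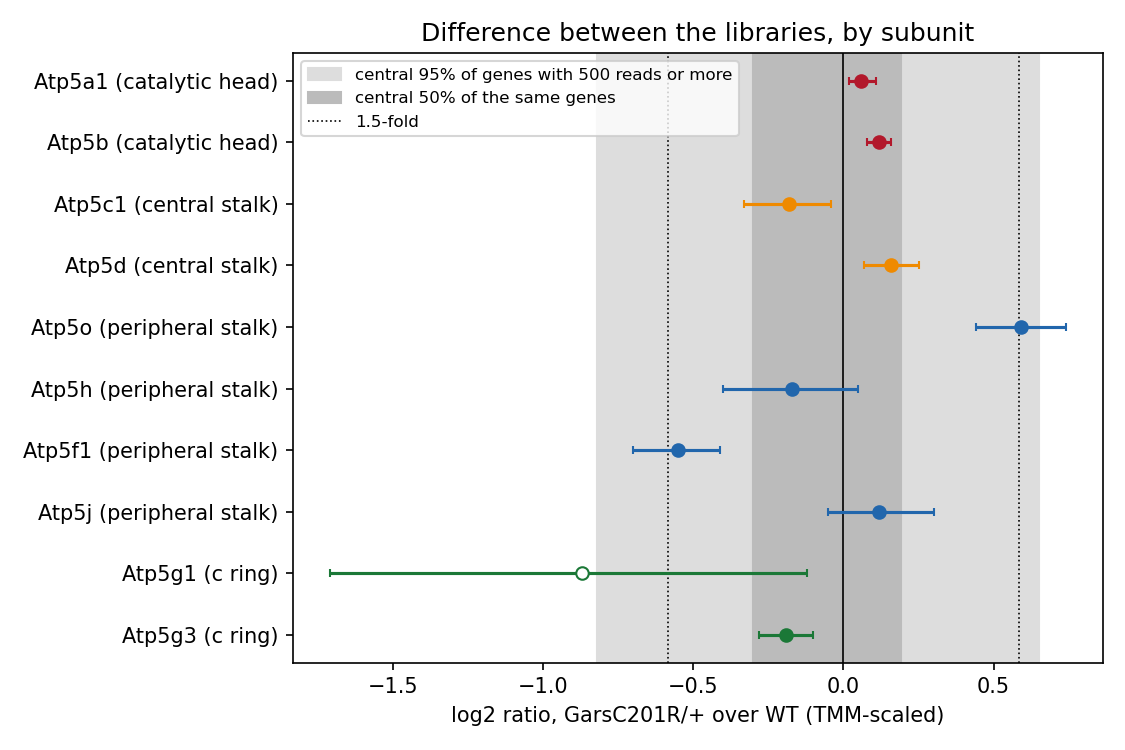
Log2 ratio of the GarsC201R/+ over the WT library for each subunit gene after TMM scaling, with 95% counting intervals as bars and colours for the part of the enzyme. The open circle is Atp5g1, which has under 100 reads, the grey bands hold the central 95% (outer) and the interquartile range (inner) of the 4480 genes with 500 or more reads, and the dotted lines mark 1.5-fold. Atp5o at 0.59 and Atp5f1 at -0.55 lie outside the inner band, and all genes but Atp5g1 lie inside the outer band.

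To be called, a gene needed at least 100 reads over both libraries, a difference of at least 1.5-fold and a counting interval that left out equal levels. Of the 9 genes that could be called, 1 was higher in GarsC201R/+, Atp5o, and 0 were lower. Over all genes 792 of 9726 were higher (8.14%) and 1087 were lower (11.2%). Among the 4480 genes with 500 or more reads, which include all 9, the shares were 3.53% higher and 7.77% lower. The count of 1 in 9 is a single gene, set beside shares of 8.14% and, with 500 or more reads, 3.53%. The limit of 500 is a floor and not a match, as the 9 genes held between 796 and 20581 reads. This count is not a result about the ATP synthase genes. The call of Atp5o rests on the threshold itself, since its log2 ratio was 0.59 and scaling with DESeq2 size factors brought it just under 1.5-fold (0.58). Atp5f1 missed the threshold at 1.47-fold and was called lower with a limit of 0.32 on the log2 scale.

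The 9 genes had a median log2 ratio of 0.064, between -0.55 and 0.59, against a median of -0.056 for all genes with 500 or more reads, of which the central 95% lay between -0.82 and 0.65. Of the 9 genes, 5 had a ratio above and 4 below equal levels, and the interval lay above equal levels for 4, below for 3 and held them for 2. Of all genes with 500 or more reads, 44.4% had a ratio above equal levels, and the interval lay above for 26.3% and below for 36.2%. Among the genes with 500 or more reads, 96.5% had a lower ratio than Atp5o and 9.20% a lower ratio than Atp5f1. The other 7 lay between the 35.4% of Atp5g3 and the 72.8% of Atp5d.

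**Figure D3:**
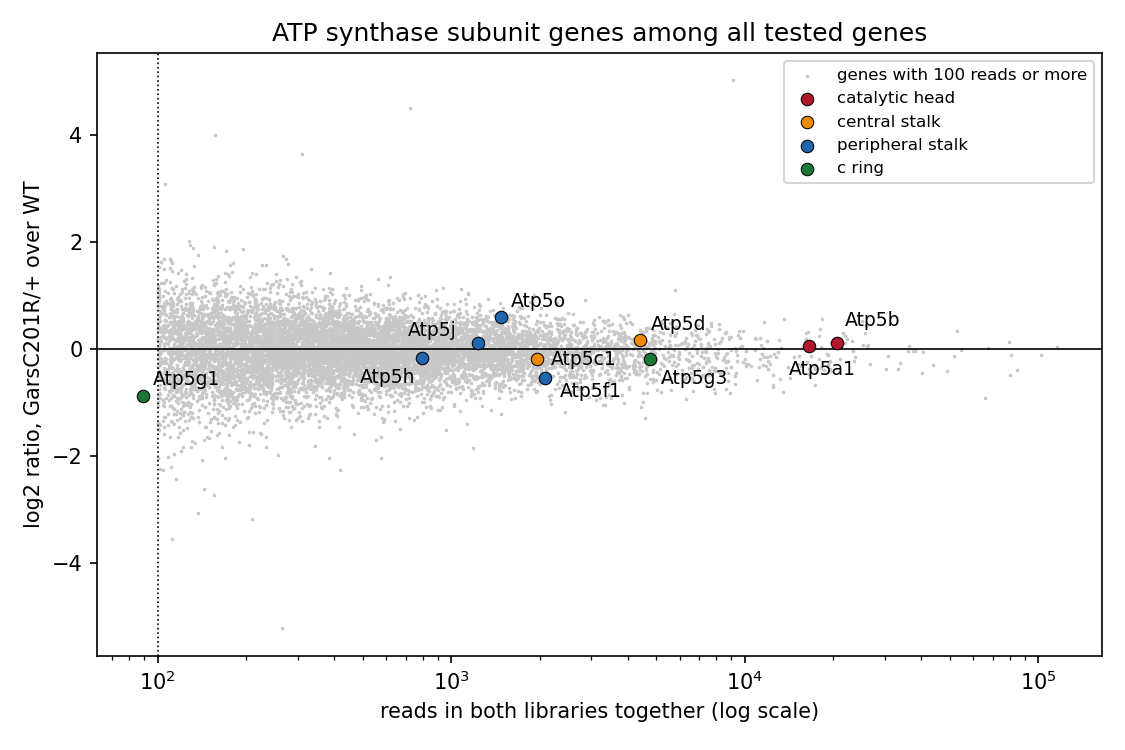
Log2 ratio of the GarsC201R/+ over the WT library against the reads of both libraries together (log axis) for the 9726 genes with 100 or more reads (grey) and the 10 subunit genes (coloured by part of the enzyme). The 9 subunit genes with 100 or more reads lie among the grey points. Atp5g1, with 89 reads, lies left of the dotted line at the minimum of 100 reads, where no other genes are drawn.

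Seen by part of the enzyme, the summed ratio was 1.07 for the catalytic head (1.05 to 1.09) and 1.04 for the central stalk (0.989 to 1.10). It was 0.985 for the peripheral stalk and 0.870 for the c ring pair (0.817 to 0.926). The sum of the c ring pair is nearly all Atp5g3, whose own ratio was 0.877, and other c subunit genes were not analysed here. With total gene reads the log2 ratio of the catalytic head was 0.15, above its counting interval after TMM scaling (0.10, interval 0.06 to 0.13). The c ring pair held 9.49% of the reads of the 10 genes in WT (9.19% to 9.79%) and 7.95% in GarsC201R/+ (7.56% to 8.36%). The share of Atp5o was 2.39% in WT (2.23% to 2.55%) and 3.45% in GarsC201R/+ (3.19% to 3.73%). The share of Atp5f1 was 4.35% in WT (4.15% to 4.57%) and 2.86% in GarsC201R/+ (2.62% to 3.12%). These shares need no scaling between the libraries. The intervals of the libraries were apart for the shares of 5 of the 10 genes, namely Atp5b, Atp5c1, Atp5o, Atp5f1 and Atp5g3, so Atp5o and Atp5f1 are not alone in this. No like count of shares was made for other genes. For the scaled ratio, a different measure, the interval lay above equal levels for 26.3% and below for 36.2% of all genes with 500 or more reads. Without a like count for other genes, the 5 of 10 cannot be read as a result about the ATP synthase genes. Whether another pair of libraries of the same genotypes would show the same shifts was not tested.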

How the data were processed

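Each table holds counts and RPKM values by gene, per the file headers. Bowtie 1.2.2, HTSeq 0.9.1 and GRCm38 appear in the submitters' processing notes, without settings or annotation release, and the treatment of reads from paralogs, overlapping genes and either strand is not given in the sources used here. Counts were used as deposited. RPKM values deposited by the authors served to compare levels between genes, and reads divided by RPKM gave the gene lengths, whole numbers equal in both libraries. Library sizes were scaled over the 12530 genes, without the 18 spike-ins, by TMM (edgeR 4.0.16, R 4.3.3). Log2 ratios used a prior count of 0.5, with exact conditional binomial (Clopper-Pearson) intervals, and ratios between a pair of genes used the conditional odds ratio. Scripts ran in Python 3.11.15 with scipy 1.17.1 and were tested on simulated data. No genotype model was fitted, as 1 library per group leaves no residual degrees of freedom. All 10 genes are named. Their symbols came with the list of identifiers, and 0 of the 49997 RefSeq genes carried an Ensembl identifier to check them. The genes, lists and rules were chosen with earlier results of these data known. Other scalings (total gene reads, DESeq2 1.42.0 size factors, upper quartile), fold, interval, read minimum and prior count were tried. Planned coding-length levels, glycine content and the remaining enzyme genes were not run, as they need protein sequences and symbol pairs not used here.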

Additional observations from a re-analysis of the deposited data

Results flagged for a closer look

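The ERCC spike-ins, which take no part in the comparison of the subunit genes, made up 0.650% of the listed reads in the GarsC201R/+ library (Wilson interval 0.642% to 0.659%) and 0.00669% in the WT library (0.00614% to 0.00729%). Whether and when they were added is not given in the sources used here. Their part in the ratios of the subunit genes was not tested beyond the scaling to them given under the processing.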

How the results depend on the processing

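Under scaling by total gene reads, by the upper quartile, by DESeq2 size factors or without the gene that exceeds 1% of a library, and with prior counts of 2 and 5, no log2 ratio of the 10 genes changed direction. Atp5o lay between 0.58 and 0.64, Atp5f1 between -0.55 and -0.50 and Atp5g1 between -0.87 and -0.78. Sums near equal levels did turn: the peripheral stalk sum went from -0.02 to 0.03 with total gene reads and 0.02 with the upper quartile, and the sum without Atp5a1 and Atp5b from -0.04 to 0.01 with total gene reads. The summed log2 ratio of all 10 was 0.05, against 0.11 with total gene reads and 0.09 with the upper quartile. For the catalytic head it was 0.10, against 0.15 with total gene reads and 0.14 with the upper quartile. With total gene reads Atp5a1 went from 0.06 to 0.12 and Atp5b from 0.12 to 0.18. All of these alternative values lie above the counting intervals after TMM scaling. Atp5o was called higher under 8 of the 11 alternatives of scaling, limits and minimum, and the numbers of the genes called higher and lower were 0 and 0 with DESeq2 and with a 2-fold limit. A fold limit of 0.32 on the log2 scale also called 1 of them lower, Atp5f1, and no minimum or a minimum of 20 reads called 1 lower, Atp5g1. Over all genes, a 2-fold limit gave 166 higher and 267 lower, the limit of 0.32 gave 1743 and 2146, and a minimum of 500 reads 158 and 348. With no minimum 1379 and with 20 reads 1321 genes were higher. A scaling to the spike-in reads, added after the data had been seen, shifts every gene by a common factor: it put 0 genes higher and 9726 lower, all 9 subunit genes with 100 reads lower, the sum at -6.50, the catalytic head at -6.46, Atp5a1 at -6.49, Atp5b at -6.44, Atp5d at -6.39 and Atp5o at -5.97. RPKM shares in place of read shares change the weight of each gene by its length. Depth limits Atp5g1 most. No paired analysis was possible because each genotype has 1 library, and no replicate could be left out.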
